A study of Homo sapiens with 4 samples.

Results

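The HOX genes encode homeodomain transcription factors and lie in 4 clusters, HOXA on chromosome 7, HOXB on chromosome 17, HOXC on chromosome 12 and HOXD on chromosome 2. The genes examined here were all protein-coding genes of the deposited count table whose symbol is HOX, a cluster letter and a number, which gave 40 of the 20372 genes of the table. These 40 entries carry 39 symbols, because HOXC4 is listed under the Ensembl identifiers ENSG00000198353 and ENSG00000273266. There were 11 entries in HOXA, 10 in HOXB, 10 in HOXC and 9 in HOXD. The rule uses the symbol and not a measured value.

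The libraries were made from total RNA of TPC1 cells, an established human papillary thyroid carcinoma line in which RET is fused to CCDC6. All cells received BLU6864, a RET inhibitor, for either 6 h or 24 h, and each time was represented by 2 libraries, so the comparison was between a shorter and a longer exposure to the same drug. The sample labels state a dose of 100 µM and short single-end reads, whereas the methods of the study state 100 nM and paired-end reads. In their titles the 24 h libraries, unlike the 6 h ones, carry the word re-analysis, and any difference in their handling cannot be told apart from time. Vehicle libraries were not analysed here, so no level before treatment is given. Whether the libraries of one time came from separate cultures is not stated in the sources used here, and P values then measure only the spread between these libraries, which may be technical.

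Within a cluster the HOX genes are numbered in the order in which they lie on the chromosome, and genes with the same number in different clusters are paralogs. During development the low-numbered genes are switched on first and toward the head, and the high-numbered ones later and toward the tail. HOX proteins bind DNA together with PBX and MEIS partners. Polycomb complexes keep the clusters silent, trithorax complexes with KMT2A hold them active, and retinoic acid induces the low-numbered genes. HOXA3 and its paralogs shape the pharyngeal region, from which the thymus, the parathyroid and part of the thyroid arise.

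Reads in the HOXA cluster stopped between HOXA7 and HOXA9, neighbours on the minus strand. HOXA6 had the highest level per length of all HOX genes, HOXA7 had 10 counts over all libraries, and HOXA9 had none. Their promoters are shown to set a member with reads, one with few and one with none side by side. The sequences are the 250 bases before the transcript start on the minus strand of chromosome 7, taken from RefSeq in the GRCh38.p14 build, at chr7:27147775-27148024 for HOXA6, chr7:27156676-27156925 for HOXA7 and chr7:27165538-27165787 for HOXA9. Capitals mark each CG dinucleotide, the site of DNA methylation in mammals.
HOXA6: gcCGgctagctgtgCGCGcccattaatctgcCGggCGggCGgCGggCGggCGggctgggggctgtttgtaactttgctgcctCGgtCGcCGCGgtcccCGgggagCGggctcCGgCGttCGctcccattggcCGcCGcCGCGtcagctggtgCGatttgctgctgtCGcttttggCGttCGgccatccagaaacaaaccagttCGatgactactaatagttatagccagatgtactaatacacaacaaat
HOXA7: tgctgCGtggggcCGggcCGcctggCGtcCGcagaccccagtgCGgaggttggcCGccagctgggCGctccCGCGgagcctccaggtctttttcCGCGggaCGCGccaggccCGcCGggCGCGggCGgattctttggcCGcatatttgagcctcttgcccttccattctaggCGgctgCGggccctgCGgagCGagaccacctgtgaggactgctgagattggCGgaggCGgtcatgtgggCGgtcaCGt
HOXA9: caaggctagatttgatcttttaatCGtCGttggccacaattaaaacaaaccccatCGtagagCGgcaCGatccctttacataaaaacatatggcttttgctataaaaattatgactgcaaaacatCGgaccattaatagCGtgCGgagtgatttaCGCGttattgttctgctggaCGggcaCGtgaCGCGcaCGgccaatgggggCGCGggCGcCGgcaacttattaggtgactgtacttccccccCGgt

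These 250 bases hold 27 CG dinucleotides in HOXA6, 28 in HOXA7 and 20 in HOXA9, and their GC content is 62.0%, 70.8% and 48.8%. The promoter of HOXA9, which had no reads, is thus also rich in CG dinucleotides, and it is the only one of the 3 windows in which TATAAA, the TATA box core, was found. Promoter windows of 300 bases, which add the 50 bases after the start, were found for 20 of the 39 HOX symbols and numbered 27, of which HOXC4 and HOXC5 share 1. Over these windows the median number of CG dinucleotides was 22, with a range from 0 to 44, against 14 over all 35116 RefSeq promoters of the same length. The median was 15 in the 11 windows of the 5 genes with counts, 7 of them windows of HOXA3, and 22.5 in the 16 windows of the 15 genes without counts. TATAAA, searched on both strands, occurred in 5 of the 27 HOX windows (18.5%) and in 11.5% of all promoters. The letters TGATNNAT, the shared site of PBX and HOX proteins, occurred in 3 of the 27 (11.1%) and in 7.40% of all promoters. These matches describe the letters of the windows only.

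Most HOX genes had no reads at the depth of these libraries. Of the 40 entries, 28 (70.0%) had no count in any library, against 19.7% of the 20332 other genes. Total counts were between 23917056 and 27457040 in a library and 104689624 over the 4 libraries, so that a gene without a count lies below 0.0287 CPM (counts scaled to the library total), the level that 3 counts over all libraries would give. Such limits cover counting error only. In bulk RNA, a gene read in few cells and a gene read weakly in every cell cannot be told apart.

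Reads were confined to the low-numbered and middle parts of the clusters. Of the 8 anterior entries, paralog groups 1 to 3, 4 had counts. Of the 16 central entries, groups 4 to 8, 8 had counts. Of the 16 posterior entries, groups 9 to 13, 0 had a count in any of the 4 libraries. HOXA2, HOXA3, HOXA4, HOXA5, HOXA6 and HOXA7 were above 0 in every library, whereas HOXA9, HOXA10, HOXA11 and HOXA13 were at 0. In HOXB, HOXB3, HOXB4, HOXB5 and HOXB7 had counts, whereas HOXB1, HOXB2, HOXB6, HOXB8, HOXB9 and HOXB13 were at 0. HOXC6 was the one gene of its cluster with counts, and all 9 HOXD entries were at 0. The HOXA13, HOXB13, HOXC13 and HOXD13 genes were thus all at 0.

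**Figure D1:**
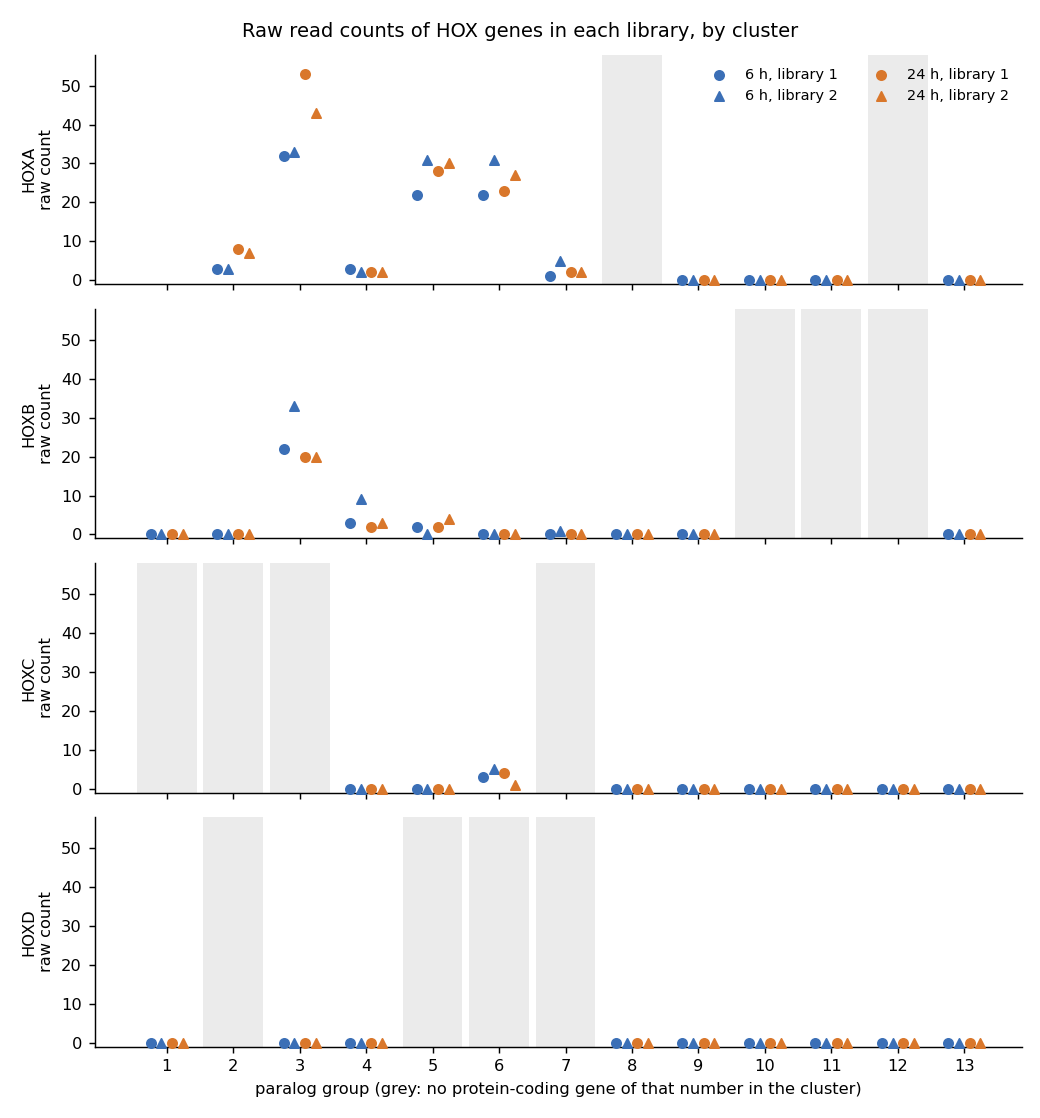
Raw read counts (vertical axis) of HOX genes by paralog group (horizontal axis), with a panel for each cluster, blue for the 6 h and orange for the 24 h libraries, circles for library 1 and triangles for library 2; grey columns mark numbers without a gene. Counts fill groups 2 to 7 of HOXA, rise to 53 at HOXA3, and are 0 in groups 9 to 13 of all clusters.

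Some of these zeros and counts rest on genes that overlap others in the table. Of the 28 entries at 0, 13 overlap no other gene of the table and 15 do, and of the 12 entries with counts, 9 overlap another gene. HOXA9 and HOXA10 overlap RP1-170O19.20, and HOXC4, HOXC5, HOXC6, HOXC8, HOXC9 and HOXC10 overlap RP11-834C11.12. Both of these long genes were at 0 in all libraries. Over the whole table, 17.2% of the 6853 overlapping genes and 21.2% of the 13519 others were at 0. Overlap was taken from start and end positions alone, so these shares do not tell how reads in shared exons were counted. The counting program and its use of strand are not given in the sources used here. How reads were divided among overlapping HOX genes is therefore uncertain. Examples are HOXA3 with HOXA4, HOXA5 and HOXA6, and HOXB3 with HOXB4 and HOXB5. Whether reads shared by overlapping entries were left out of the counts, also for entries at 0, cannot be told.

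The HOX genes held few reads in all. They received 116 and 157 counts at 6 h and 156 and 145 at 24 h, 574 counts in all, or 5.48 CPM. HOXA took 440 of these, HOXB 121, HOXC 13 and HOXD 0. HOXA3 alone held 161 (28.0%), followed by HOXA5 with 111 (19.3%), HOXA6 with 103 (17.9%) and HOXB3 with 95 (16.6%). The other 8 genes with counts shared the remaining reads, among them HOXA2 with 21 and HOXB7 with 1.

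Because a long transcript collects more reads, levels were compared between genes as RPKM, CPM per kilobase of transcript. HOXA6, which helps to pattern the trunk skeleton, had the highest level of the HOX genes on this scale, with 0.918 and 1.15 at 6 h and 0.886 and 1.02 at 24 h. HOXA5, needed for lung development, had 0.544 and 0.681 at 6 h and 0.638 and 0.668 at 24 h. HOXA3 had 0.405 and 0.371 at 6 h and 0.619 and 0.490 at 24 h. Every library of HOXA6 thus lay above every library of HOXA5, whereas HOXA3 and HOXA5 overlapped, since the first 24 h library of HOXA3 lay above the first 6 h library of HOXA5. HOXB3, the HOXB paralog of HOXA3, followed with 0.216 and 0.288 at 6 h and 0.181 and 0.177 at 24 h, below all libraries of HOXA3.

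The remaining genes had lower mean levels, and neighbours overlapped. HOXA2 also overlapped HOXB3, with 0.181 in its first 24 h library against 0.177 in the second 24 h library of HOXB3. Their mean levels over the 4 libraries were 0.118 in HOXA2, 0.0801 in HOXB4, 0.0503 in HOXA4, 0.0465 in HOXA7, 0.0422 in HOXC6, 0.0413 in HOXB5 and 0.00673 in HOXB7, all in RPKM. The median of the 12 HOX genes with counts was 0.0868, against 5.01 over the 15575 genes of the table with counts and a known length. HOXA6, the highest, lay above 31.4% of those genes, HOXA5 above 28.6% and HOXB3 above 22.7%, with HOXA3 between the last 2. Even the leading HOX genes therefore belonged to the lower end of the expressed genes of these cells.

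**Figure D2:**
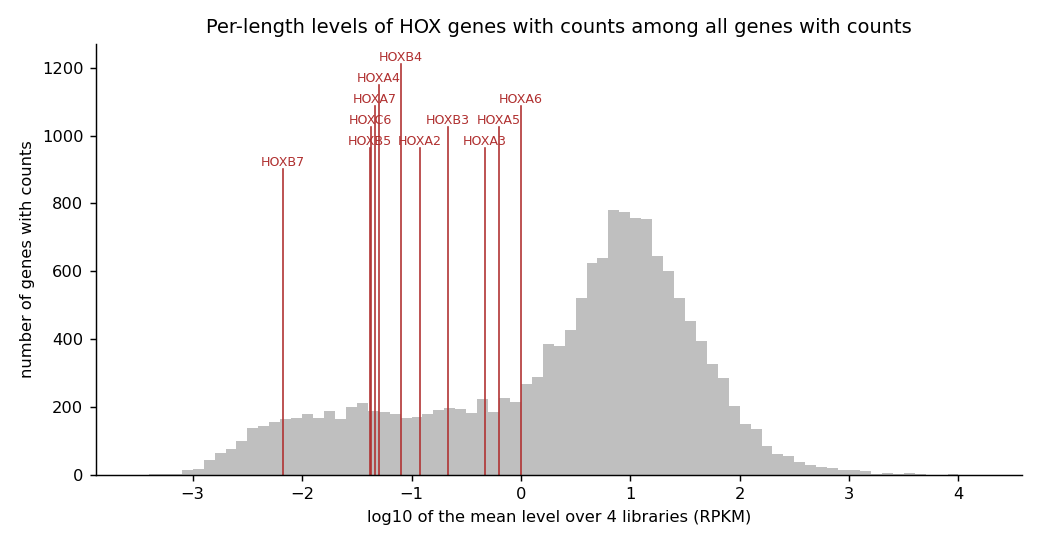
Number of genes (vertical axis) by mean level over the 4 libraries, as log10 of RPKM (horizontal axis), in grey for all 15575 genes with counts, with red lines at 11 HOX genes. All HOX lines stand left of the median of all genes, 5.01, with HOXA6 at 0.992 the farthest right.

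The question of the comparison was how expression changes between 6 h and 24 h of RET inhibition. No HOX gene passed the test for a change in either direction. Only HOXA3, HOXA5, HOXA6 and HOXB3 had enough counts to be tested, 4 of the 12876 genes that passed the filter on low counts. By the edgeR quasi-likelihood test, with P adjusted after Benjamini and Hochberg over all genes tested, 0 of these 4 were higher and 0 were lower at an adjusted P under 0.05, where 33% of all genes tested were higher and 32.6% were lower. The study called a fall beyond 0.5 on the log2 scale with P below 0.01 before adjustment, in DESeq2. With these cutoffs applied here to the edgeR values and in both directions, 0 rose and 0 fell, against 17.4% and 17.7% of all genes tested. At an unadjusted P under 0.05 the count was also 0 in edgeR with the filter and 0 of 12 in DESeq2, and without the filter it was 1 of 12 in edgeR, HOXA3. The median log2 fold change of the 4 genes was -0.02, beside 0.0029 over all genes tested.

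HOXA3 (chr7:27145803-27192200 in hg19), which directs the formation of the thymus and parathyroid, had the largest difference of the 4. Its raw counts were 32 and 33 at 6 h and 53 and 43 at 24 h. Both 24 h libraries lay above both 6 h libraries. Scaled to library size, the means were 33.1 ± 2.04 normalized counts at 6 h and 47.3 ± 7.75 at 24 h (SD, n = 2 each). The log2 fold change was 0.52 (SE 0.252, 95% interval -0.0035 to 1.03), with a Benjamini-Hochberg adjusted P of 0.0751 in edgeR's quasi-likelihood test. The interval covers a fold between 0.998 and 2.05, so neither no difference nor a doubling was outside it.

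HOXB3 (chr17:46626232-46682274), which acts in hindbrain patterning and together with HOXA3 in the pharyngeal organs, had the opposite order. It had 22 and 33 raw counts at 6 h and 20 and 20 at 24 h, with both 24 h libraries below both 6 h libraries after scaling. The means were 27.7 ± 5.59 and 19.7 ± 0.328 normalized counts (SD, n = 2 each), a log2 fold change of -0.50 (SE 0.319) with an adjusted P of 0.171 in edgeR's quasi-likelihood test, and the 95% interval of the fold was 0.449 to 1.11. The second 6 h library sets much of this value, since without it the log2 fold change was -0.27.

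HOXA5 (chr7:27180671-27183287) and HOXA6 (chr7:27185015-27190222) overlapped between the times. HOXA5 had 22 and 31 raw counts at 6 h and 28 and 30 at 24 h. The fold from 6 h to 24 h was 1.06, with a 95% interval of 0.699 to 1.61 and an adjusted P of 0.811 in edgeR's quasi-likelihood test. HOXA6 also had 22 and 31 raw counts at 6 h, and 23 and 27 at 24 h. Its fold was 0.915, with a 95% interval of 0.593 to 1.41 and an adjusted P of 0.728 in the same test. Both intervals reach from a lower to a higher level at 24 h.

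The 8 remaining genes with counts were too sparse for the test, and for those named the counts are given with the ratio of 24 h to 6 h after scaling and its exact 95% counting interval. HOXA2, which gives the second pharyngeal arch its identity, had 3 and 3 counts at 6 h and 8 and 7 at 24 h, a ratio of 2.42 (0.888 to 7.62). Its 24 h libraries lay above its 6 h libraries, but the interval included 1. HOXB4, known for expanding blood stem cells, had 3 and 9 counts at 6 h and 2 and 3 at 24 h, a ratio of 0.404 (0.111 to 1.23), with both 24 h libraries below the 6 h libraries after scaling.

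HOXA4, HOXA7, HOXB5 and HOXC6, all genes of trunk patterning, overlapped between the times and had at most 5 counts in a library. HOXA4 had 3 and 2 counts at 6 h and 2 and 2 at 24 h, and HOXA7 had 1 and 5 at 6 h and 2 and 2 at 24 h. HOXB5 had 2 and 0 counts at 6 h and 2 and 4 at 24 h, and HOXC6 (chr12:54384408-54424607) had 3 and 5 at 6 h and 4 and 1 at 24 h. These 4 genes were at the edge of detection at both times. Their ratios lay between 0.606 in HOXC6 and 2.91 in HOXB5, and each counting interval included 1. HOXB7 had 1 count, in the second 6 h library.

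**Figure D3:**
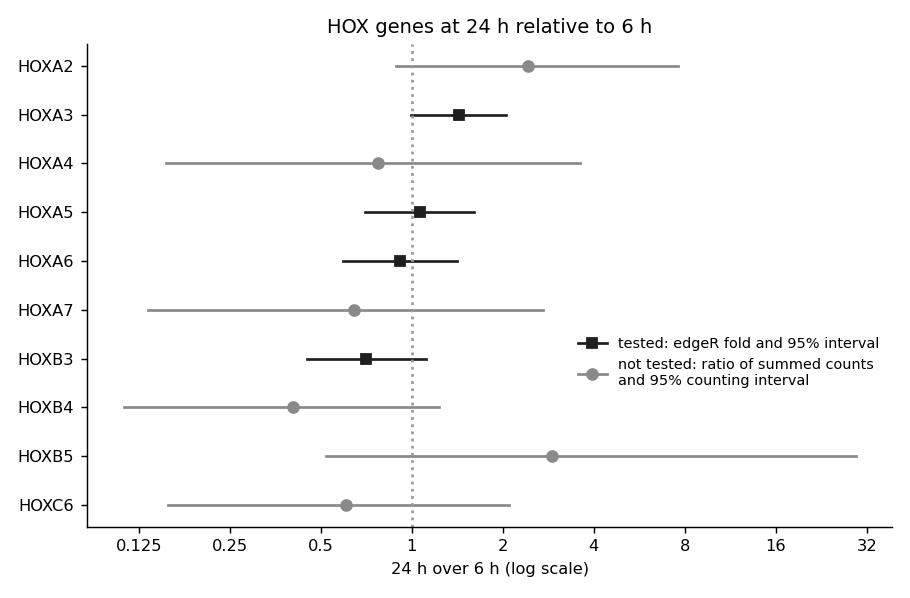
Level at 24 h relative to 6 h (horizontal axis, log scale) of 10 HOX genes with counts at both times, as the edgeR fold and its 95% interval for the 4 genes tested (black squares) and as the ratio of summed counts with its 95% counting interval for the 6 others (grey circles). The dotted line marks no difference, and every interval crosses it, from HOXB5 at 2.91 to HOXB4 at 0.404.

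Across the 12 genes with counts, the 24 h libraries lay above the 6 h libraries in 3 genes, HOXA2 and HOXA3 among them, and below them in 2, HOXB3 and HOXB4, and they overlapped in 7. Among the 4 genes tested, 1 lay above, 1 below and 2 overlapped, beside 41% above and 40.8% below over all genes tested. No such share was made over all genes with counts, so the order in the 12 genes is a description only. The genes HOXA4 to HOXA7 together summed to 51.8 and 66.2 at 6 h and 54.8 and 59.4 at 24 h, and these overlapped.

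By cluster, the normalized counts of HOXA summed to 92.8 and 104.6 at 6 h and 127.5 and 113.9 at 24 h, and those of HOXB to 29.1 and 41.3 at 6 h and 23.9 and 26.3 at 24 h. HOXA was thus somewhat higher and HOXB somewhat lower at 24 h in each library, with log2 ratios of the means of 0.29 and -0.49. Such an order was common among single genes tested, of which 41% lay above and 40.8% below in both 24 h libraries. All HOX genes together summed to 137.9 ± 18.0 at 6 h and 148.3 ± 10.1 at 24 h (SD, n = 2 each), a difference smaller than the spread at 6 h. With 2 libraries against 2, the smallest P of an exact two-sided permutation test is 0.333, so no test of a sum could pass and none was made.

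Most of the nearest genes on each side of the clusters were read far more often than the clusters themselves, and 11 of these 16 had over 500 counts in every library. Their distances from the clusters ranged from 9.0 kb for EVX2 to 1021.6 kb for HNRNPA3. SKAP2, 97.8 kb before HOXA and a signalling adaptor, had between 2379 and 2550 raw counts in every library, and HIBADH, a valine-degrading enzyme 325.3 kb after it, between 3852 and 5421. The entire HOXA cluster had at most 128. The exceptions were other homeobox genes, EVX1 at 42.4 kb from HOXA and EVX2 at 9.0 kb from HOXD, both at 0, together with SKAP1 and C7orf71, which had at most 4 counts, and TTLL6, which had at most 89. On either side of the HOXD cluster, itself at 0, KIAA1715 had between 1634 and 3520 raw counts and MTX2, a mitochondrial import gene, between 1104 and 1356.

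Of the 12 flanking genes tested, 3 rose and 6 fell, beside 33% and 32.6% of all genes tested. No gene of HOXC or HOXD had enough counts for this test. KIAA1715, which encodes an endoplasmic reticulum shaping protein, fell from 3431 ± 76.1 to 1631 ± 4.89 normalized counts (SD, n = 2 each), a log2 fold change of -1.07 with a Benjamini-Hochberg adjusted P of 3.78e-13 in edgeR's quasi-likelihood test, beside a HOXD cluster at 0 at both times. Of the genes flanking HOXB, CALCOCO2, 101.8 kb away, fell by 0.49 (adjusted P 1.46e-06, same test). SNX11, 405.5 kb away, fell by 0.29 (adjusted P 0.00318, same test). TTLL6, a tubulin-modifying enzyme 33.1 kb away, rose by 0.62 on the log2 scale (adjusted P 0.00618, same test). Its raw counts were 56 and 56 at 6 h and 89 and 89 at 24 h. HIBADH rose by 0.39 (adjusted P 3.59e-05, same test) and CBX5, the gene of a heterochromatin protein 174.9 kb from HOXC, fell by 0.46 (adjusted P 3.67e-06, same test).

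**Figure D4:**
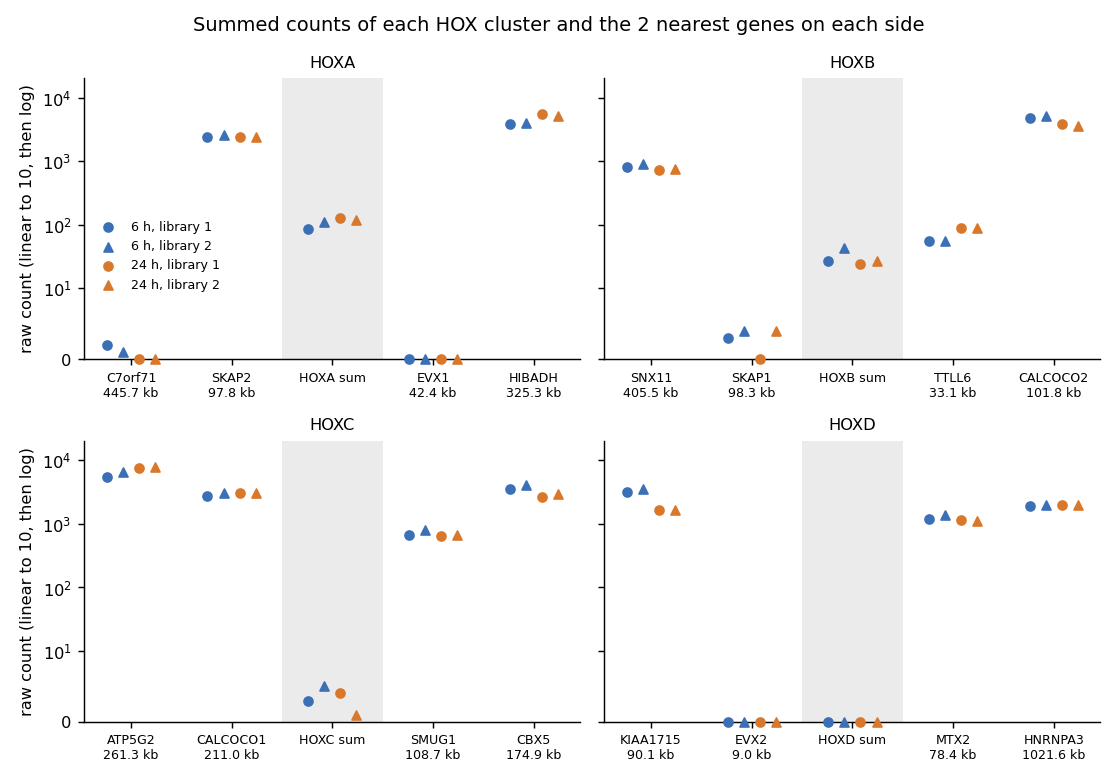
Raw counts (vertical axis, linear up to 10 and logarithmic above) of each HOX cluster summed (grey band) and of the nearest genes on each side, ordered by position with their distance in kb, blue for 6 h and orange for 24 h libraries. The HOXA sum stays at or below 128 and the HOXD sum at 0, while 11 of the 16 neighbours lie above 500 in every library.

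The genes of the HOX partners and of the machinery known to act on the clusters were, unlike the HOX genes, well expressed. Of 10 partner genes, the PBX, MEIS and PKNOX genes and the PBX-binding regulator PBXIP1, 8 were tested, 3 were higher and 2 lower at 24 h, where 33% of all genes tested were higher and 32.6% lower. Their median log2 fold change was -0.06, and a called share of this size is near the rate over all genes. MEIS2, a partner that stabilizes HOX and PBX proteins on DNA, had 364 and 375 raw counts at 6 h and 245 and 290 at 24 h, and fell by 0.51 on the log2 scale (SE 0.110, adjusted P 0.000212 in edgeR's quasi-likelihood test). PBXIP1 rose by 0.38 (adjusted P 0.000151, same test), and PKNOX1, another MEIS relative, rose by 0.26 (adjusted P 0.00487, same test). MEIS1 had 147 and 150 raw counts at 6 h and 156 and 152 at 24 h, and its log2 fold change was 0.0061. PKNOX1 did not pass without the first 6 h library (adjusted P at most 0.111), and MEIS3, with 0.23 on the log2 scale and an adjusted P of 0.0444, did not pass under 5 of 10 alternatives.

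The 15 homeobox genes linked to the clusters or derived from the ParaHox group resembled the HOX genes, with 11 at 0 in all libraries and 2 tested. GBX2, a gene of the hindbrain border, had raw counts from 82 to 97 in all libraries. MNX1, a motor neuron and pancreas gene, had 14 and 17 at 6 h and 8 and 9 at 24 h, with an adjusted P of 0.0720 in edgeR's quasi-likelihood test. Neither passed.

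Of the 11 Polycomb repressive complex 2 genes, all tested, 6 fell and 2 rose, with a median log2 fold change of -0.22 beside 0.0029 over all genes tested, of which 32.6% were lower and 33% higher. EZH2, its histone H3 lysine methyltransferase, had 886 and 1068 raw counts at 6 h and 275 and 296 at 24 h, and its log2 fold change was -1.82 (SE 0.0924, adjusted P 1.56e-15 in edgeR's quasi-likelihood test). PHF19, an accessory subunit that recruits the complex, had 1923 and 2381 at 6 h and 372 and 430 at 24 h, and its log2 fold change was -2.47 (SE 0.0846, adjusted P 2.58e-19). The core subunit SUZ12 fell by 0.59 and RBBP7 by 0.46 on the log2 scale. The 2 genes that rose were EZH1 and RBBP4. EZH1, the other methyltransferase gene of the list, had means of 1214 normalized counts at 6 h and 1393 at 24 h. Those of EZH2 were 991 and 281. These counts are not scaled to transcript length, so the 2 genes cannot be ranked by them. It rose by 0.20 (adjusted P 0.0176 in edgeR's quasi-likelihood test), and RBBP4 rose by 0.33. With DESeq2, 1 of the 11 genes rose. The 28 HOX entries without a count are at 0 at both times by definition, so they give no measure of a change. Any link between the Polycomb and HOX values was not tested.

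Polycomb repressive complex 1 and trithorax genes were called in both directions, in numbers to be read against the 33% higher and 32.6% lower among all genes tested. Of 18 complex 1 genes 5 rose and 5 fell (median log2 fold change -0.09), with CBX7, a reader of methylated histone H3, down by 0.57 and CBX2, another reader, up by 0.39 on the log2 scale. PCGF6 and PCGF3, which define variants of the complex, fell by 0.46 and 0.28. Of 18 trithorax, COMPASS and H3K27 demethylase genes 4 rose and 7 fell (median -0.12). With DESeq2, 4 of them rose and 4 fell. KMT2A, the methyltransferase known for keeping HOXA genes active, fell by 0.42 (adjusted P 0.00108 in edgeR's quasi-likelihood test). It had 1188 and 1572 normalized counts at 6 h against 899 and 1165 at 24 h, so the first 6 h and second 24 h libraries were close. PSIP1, which tethers KMT2A to chromatin, fell by 0.84, and AFF1, an elongation factor, rose by 0.78. Of the COMPASS subunits, DPY30 fell by 0.70 and WDR5 rose by 0.52.

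Of 17 genes of retinoic acid synthesis, turnover and receptors, 10 were tested, 2 rose and 5 fell, beside 33% and 32.6% of all genes tested, and their median log2 fold change was -0.24. CRABP2, which carries retinoic acid to its receptors, had 2321 and 2666 raw counts at 6 h and 584 and 689 at 24 h, and its log2 fold change was -2.01 (SE 0.0788, adjusted P 4.99e-18 in edgeR's quasi-likelihood test). RDH10, an enzyme of its synthesis, fell by 0.60, DHRS3, which turns its precursor back to retinol, fell by 0.45, and the receptor gene RARA rose by 0.55.

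**Figure D5:**
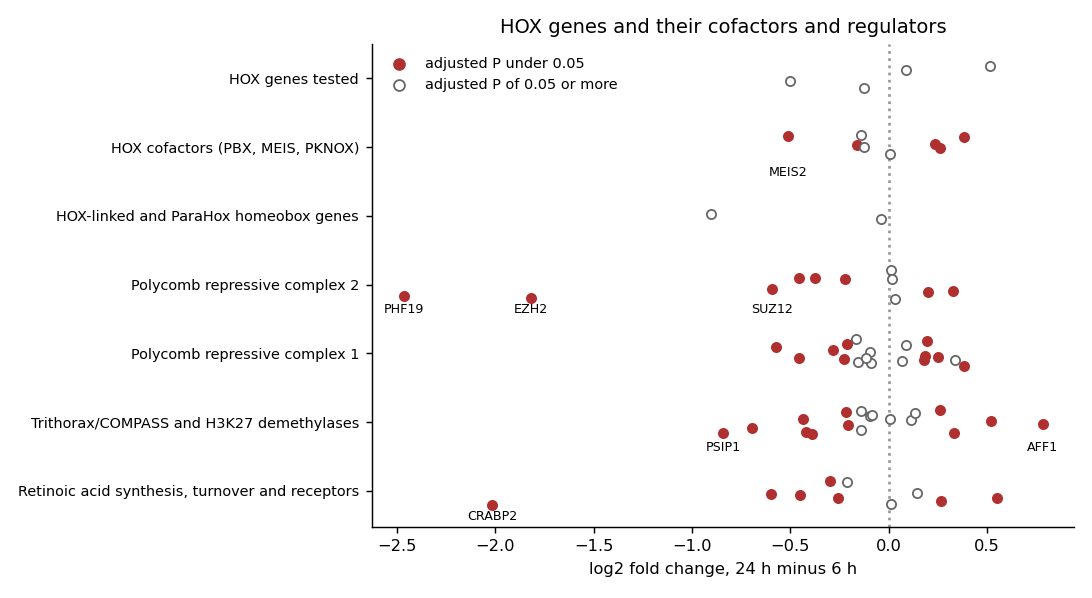
Log2 fold change from 6 h to 24 h (horizontal axis) of each gene tested, by list (rows), with filled red points for genes at an adjusted P under 0.05 and open points for the others; vertical scatter within a row has no meaning. The 4 HOX genes are all open, from -0.50 to 0.52, while PHF19, CRABP2 and EZH2 stand at -2.47, -2.01 and -1.82.

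The labelled cell type was checked against thyroid markers. PAX8, a transcription factor of the thyroid lineage, had between 19124 and 22978 raw counts in every library, and FOXE1, HHEX and TG, the thyroglobulin gene, were also read. The defining markers TSHR and NKX2-1 were at 0 in all libraries. White blood cell markers summed to between 6.81 and 8.97 normalized counts, and 0 of 6 had enough counts to be tested. Endothelial markers, 4 of 5 in the table, summed to 549.5 and 514.2 at 6 h and 54.8 and 28.2 at 24 h, most of it KDR, while CDH5 had at most 1 count. Fibroblast markers summed to between 47.0 and 50.7 at 6 h and between 94.4 and 104.6 at 24 h, with COL3A1 at 0. Both tested members rose, LUM from raw counts of 39 and 40 to 71 and 66 and THY1 from 0 and 3 to 22 and 28. LUM did not pass with DESeq2 (adjusted P 0.0851). PDGFRA, not tested, had 8 and 6 raw counts at 6 h and 11 and 3 at 24 h, and DCN had at most 1. Any part of such cells in the HOX counts was not tested.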

How the data were processed

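RNA-seq of TPC1 cells treated with BLU6864 was analysed for 2 libraries at 6 h and 2 at 24 h, grouped by the treatment label. The authors aligned reads with STAR, version 2.3 and build hg19 in the submitters' processing notes (the methods name a later version), and deposited raw counts per gene. The counting program and its strand setting are not given in the sources used here. They also deposited a normalized signal, the counts divided by a size factor per library, and their own DESeq2 comparison, namely a log2 fold change, a Wald score and p-values, and none of these columns was used.

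Raw counts were tested in edgeR 4.0.16 (R 4.3.3) with filterByExpr, which kept 12876 genes holding 99.97% of the counts, TMM scaling, time as the single factor, the quasi-likelihood test and Benjamini-Hochberg adjustment. Total counts were between 23917056 and 27457040. To normalize a count, it was multiplied by the mean effective (TMM) library size over that of its own library. Levels per length used the longest protein-coding transcript in GENCODE v44, which gave a length for 39 of the 40 HOX entries. Ratios of untested genes carry 95% exact binomial intervals, which cover counting error only. Positions are those of the table (hg19), and promoters are from RefSeq (GRCh38.p14) and were matched by symbol. The replicate counts of a time differed beyond sampling noise (chi-square per degree of freedom 10.0 at 6 h and 7.65 at 24 h), so each library counted as 1 replicate. The procedure was tested on simulated data. Plots used matplotlib 3.10.9.

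The HOX genes and the lists of partners, regulators and markers were chosen with earlier results of these data known. Values in each library were set for HOX genes that passed the test or had a mean of at least 100 normalized counts, which none did, so the values of HOX genes with counts are given, chosen after they were seen. The results of some single genes are not reported here, though totals include them. From each other list the up to 4 members with the largest log2 fold change were to be named, among those with an adjusted P under 0.05 and a mean of at least 50. KMT2A, EZH1, RBBP4, MEIS1, GBX2, MNX1, the markers and the flanking genes were named outside this rule, after their values were seen. Alternatives were DESeq2 1.42.0, scaling by upper quartile or by library size alone, leaving out the filter or requiring 10 counts in each library, a block for the replicate number, and each library left out. No sequence of HOX proteins was used here.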

Additional observations from a re-analysis of the deposited data

How the results depend on the processing

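The number of HOX genes called higher or lower was 0 under all alternatives and both call rules, but with 4 genes tested this says little about stability. The log2 fold change of HOXA3 lay between 0.35 and 0.68 over 10 alternatives, with adjusted P between 0.0613 and 0.380, and that of HOXB3 between -0.68 and -0.27. Without the first 6 h library the log2 fold change of HOXA5 turned to -0.060, and without the second that of HOXA6 turned to 0.047, neither near the threshold, and over the libraries left out they ranged from -0.060 to 0.26 and from -0.27 to 0.047. With each library left out in turn, the median log2 fold change of the HOX genes tested ranged from -0.17 to 0.15, the log2 ratio of the HOXB sum from -0.72 to -0.22 (highest without the second 6 h library) and that of the HOXC sum from -2.05 to -0.012 (lowest without the first 24 h library), and the partner and regulator genes called higher numbered 10 to 17, against 16 with all libraries. The value of 10 arose without the second 6 h and without the second 24 h library. The cause was not tested, beyond the smaller number of libraries.

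With the replicate number as a block, the adjusted P of HOXA3 was 0.0663 and of HOXB3 0.166, the median was -0.02 and 0 HOX genes were called. Libraries with the same number deviated together with a correlation of 0.0844 over 2 pairs, so the numbers were not taken as pairs. The alternatives for the lists, the levels per length and the count minimum were chosen after seeing the data. The low counts limit the HOX results, since 8 of the 12 genes with counts were not tested. Outliers were not tested in groups of 2.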

Other observations

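Homeobox genes outside the HOX clusters, chosen by symbol after values had been seen, were read more often than the HOX genes. Of 90 such genes 48 (53.3%) were at 0 in all libraries, 24 were tested, 9 were higher and 4 lower at 24 h (over all genes tested, 33% and 32.6%), and 14 had a mean of at least 100 normalized counts. ALX4, a craniofacial gene, had 14 and 18 raw counts at 6 h and 57 and 90 at 24 h, and its log2 fold change was 2.15 with an adjusted P of 3.57e-07 in edgeR's quasi-likelihood test. SHOX2, a limb and heart pacemaker gene, fell by 0.57 on the log2 scale, and SIX5 fell by 0.41 from the highest level of those named, 1898 ± 0.863 normalized counts. OTX1 and IRX2, both patterning genes, rose by 0.76 and 0.60.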
